A study of Homo sapiens with 22 samples.

Results

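The genes described here are 8 human genes of the cellular response to zinc, taken by gene symbol from the 60675 genes of an RNA-seq count table of HT1080 cells. They are the metallothioneins MT2A, MT1X, MT1E, MT1F, MT1G and MT1M, the zinc exporter SLC30A1 and the zinc-sensing transcription factor MTF1. The question was whether hydroxamate inhibitors, which bind the catalytic zinc of lysine deacetylases (KDACs), or point mutations of the enzymes alter the metal response. HT1080 is a human fibrosarcoma cell line, grown here in medium with fetal bovine serum. The 22 libraries comprised 4 of wild-type (WT) cells, 4 of each of 3 mutant lines, and 3 each of WT cells given Tubastatin A or PCI-34051. In the mutant lines KDAC6H216A, KDAC6H611A and KDAC8H143A, an active-site histidine was replaced by alanine in the first domain of KDAC6, the second domain of KDAC6 and KDAC8, at the single X-linked copy of each gene. KDAC6H216A is a pool of independently made lines. The number of clones behind KDAC6H611A and KDAC8H143A is not given in the sources used here, so effects of a clone and of its mutation cannot be told apart. KDAC8H143A also carries an unintended base inserted in an intron. Tubastatin A, an inhibitor directed at KDAC6, was given at 1 µM and PCI-34051, directed at KDAC8, at 5 µM, both for 2 days. The controls for both were the untreated WT cells, and a vehicle control was not analysed here.

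Metallothioneins are small cysteine-rich proteins that bind zinc, copper and cadmium. Free zinc activates MTF1, a zinc finger protein that binds metal response elements in the promoters of the metallothionein genes and of SLC30A1, whose product moves zinc out of the cell. Transcripts of these genes are therefore widely read as a report of available zinc, and metallothionein genes are also induced by glucocorticoids and by cadmium.

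On the genome build GRCh38, the 6 metallothionein members lie on chromosome 16, in order MT2A at 56608584 to 56609497, MT1E at 56625475 to 56627112, MT1M at 56632659 to 56633981, MT1F at 56657731 to 56660698, MT1G at 56666730 to 56668065 and MT1X at 56682470 to 56684196. MT1G lies on the minus strand and the other 5 on the plus strand. SLC30A1 (211571568 to 211579161) and MTF1 (37809574 to 37859592) are on the minus strand of chromosome 1. All 8 are annotated as protein-coding in GENCODE release 44.

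RefSeq promoter windows (GRCh38.p14) were matched for MT2A, MT1X, SLC30A1 and MTF1, 4 of the 8 genes. The 250 bases before the start of MT2A, MT1X and SLC30A1 are shown because they are the metal-responsive promoters of the genes that differed most between groups. Capitals mark the 7-base cores of the metal response element, TGCACNC or TGCGCNC, on either strand, so a core on the opposite strand appears as its reverse complement.
MT2A, chr16:56608334-56608583, plus strand: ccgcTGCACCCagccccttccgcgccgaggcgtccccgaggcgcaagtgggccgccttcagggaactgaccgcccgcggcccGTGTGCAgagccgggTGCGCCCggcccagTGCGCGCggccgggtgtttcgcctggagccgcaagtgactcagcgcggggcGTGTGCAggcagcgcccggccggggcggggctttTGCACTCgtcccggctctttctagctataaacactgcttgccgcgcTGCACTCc
MT1X, chr16:56682220-56682469, plus strand: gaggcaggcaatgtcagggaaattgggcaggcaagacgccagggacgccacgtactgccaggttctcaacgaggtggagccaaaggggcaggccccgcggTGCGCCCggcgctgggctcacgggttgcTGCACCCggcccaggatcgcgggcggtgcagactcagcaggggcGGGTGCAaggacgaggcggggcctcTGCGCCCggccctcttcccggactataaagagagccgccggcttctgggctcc
SLC30A1, chr1:211579162-211579411, minus strand: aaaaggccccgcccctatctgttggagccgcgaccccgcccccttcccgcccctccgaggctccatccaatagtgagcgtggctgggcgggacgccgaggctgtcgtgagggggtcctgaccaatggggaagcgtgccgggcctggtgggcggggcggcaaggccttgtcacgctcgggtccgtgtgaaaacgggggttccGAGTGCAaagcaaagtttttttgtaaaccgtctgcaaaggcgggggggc
MT2A held 7 cores, MT1X 4 and SLC30A1 1, and the window of MTF1 (chr1:37859593-37859842, minus strand) held 0. Of 27305 RefSeq windows of this length, 24.7% held at least 1 core, 0.366% at least 4 and 0.121% at least 5. The core of SLC30A1 began 49 bases before the start, and the nearest of MT2A and MT1X began 8 and 53 bases before it. These matches describe letters in the windows and not binding.

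Expected counts per library summed to between 5249001 and 29862708. WT libraries held 5249001 to 8998524, KDAC6H216A 6837459 to 11737872, KDAC6H611A 7324585 to 12752511, KDAC8H143A 11010771 to 17170522, Tubastatin A 28394271 to 29862708 and PCI-34051 24315817 to 28676563. The mitochondrial rRNA genes took 20.8% to 23.9% of the counts in WT cells, 0.00376% to 0.0259% in KDAC8H143A and at most 0.00541% with either inhibitor, so that depth and this share moved with 3 of the 5 groups compared with WT cells. In KDAC6H216A the share was 0.195% to 15.1%, every library below those of WT cells, while depth overlapped. KDAC6H216A replicate 1 (0.195%) and KDAC6H611A replicate 4 (0.173%) stood apart from their own groups in the same way. In KDAC6H611A replicate 2 was the highest of all libraries at 38.0%, against 24.5% and 21.0% in replicates 1 and 3. HDAC6, the gene of KDAC6, was at 6.36 ± 0.75 CPM in KDAC6H216A against 14.2 ± 3.27 in WT cells (SD, n = 4 each; log2 fold change -1.25 ± 0.18 SE, adjusted p = 0.0054, edgeR), and neither it nor HDAC8, the gene of KDAC8, passed the threshold elsewhere. The study, using DESeq2, reported no significant RNA-seq change of either gene in any line. Its quantitative PCR gave slightly lower KDAC6 in KDAC6H216A and KDAC8H143A. Values of HDAC6 under the alternative fits are not given here. Of the mesenchymal markers, VIM, FN1, LGALS1, CD44 and COL4A1 were expressed in every library (lowest value 124 CPM, of COL4A1) and S100A4 was at most 3.26 CPM, whereas EPCAM, CDH1, PTPRC, CD3E and ALB were at most 3.97 counts and CLDN7 at most 9.

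Of the 8 genes, 5 were expressed and MT1F, MT1G and MT1M were at or under the floor in every library. MT1F had 1 count in 3 libraries and MT1G in 2, and MT1M had 0 counts in all 22. A floor of 3 counts equals between 0.1 and 0.572 CPM, the counts scaled to the library's size, depending on the library, and no fold change is given for these 3 genes. Of 14 other metallothionein genes and pseudogenes in the table, 11 had 0 counts in every library, and MT1JP, MT1A and MT1L reached at most 9, 5 and 2. MT1JP, a pseudogene, was above 3 counts in 9 libraries and MT1A in 1, and the remaining 12 did not pass 3 counts in any library.

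**Figure D1:**
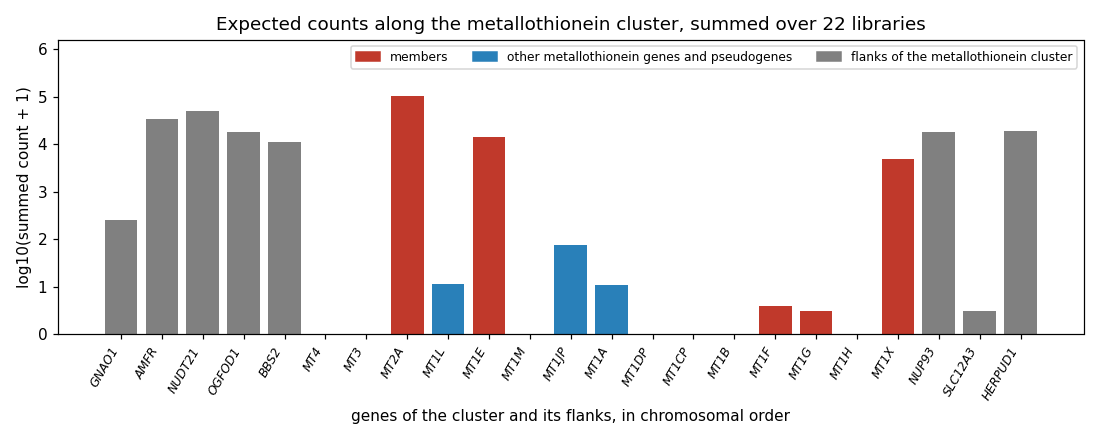
Sum over the 22 libraries of the expected counts of each gene of the metallothionein cluster and its flanks, on a log10 scale with 1 added, in order along chromosome 16. Bars are coloured by gene list, and MT2A, MT1E and MT1X stand above every other metallothionein gene.

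In WT cells the order of the expressed members was compared per kilobase of exon, in CPM per kb with SD and n = 4. MT2A, the main metallothionein of many human tissues, was at 234 ± 16.8, MT1E at 34.4 ± 3.92, SLC30A1 at 7.85 ± 0.63, MT1X at 3.48 ± 1.02 and MTF1 at 3.42 ± 0.13. MT1X and MTF1 differed by less than their spread. MT2A alone supplied 82.2% to 84.8% of all counts of the metallothionein members in WT libraries and 79.4% to 88.2% over all 22, so a sum over the family is largely MT2A.

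The levels that follow are CPM of whole genes, scaled by the trimmed mean of M-values (TMM) over all 22 libraries. MTF1, the sensor, was at 28.1, 26.5, 26.2 and 28.3 CPM in the WT libraries. SLC30A1, the exporter, was at 42.1, 44.7, 50.8 and 47.4 CPM. Both varied little among WT libraries. MT2A was at 192, 222, 216.2 and 226 CPM and MT1E, a metallothionein of the same cluster, at 30.4, 39.1, 39.1 and 36.0 CPM. MT1X, the cluster's last gene, was at 3.72, 5.73, 7.82 and 6.80 CPM, from 173 counts in the 4 libraries together, and was the least precise of the 5.

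**Figure D2:**
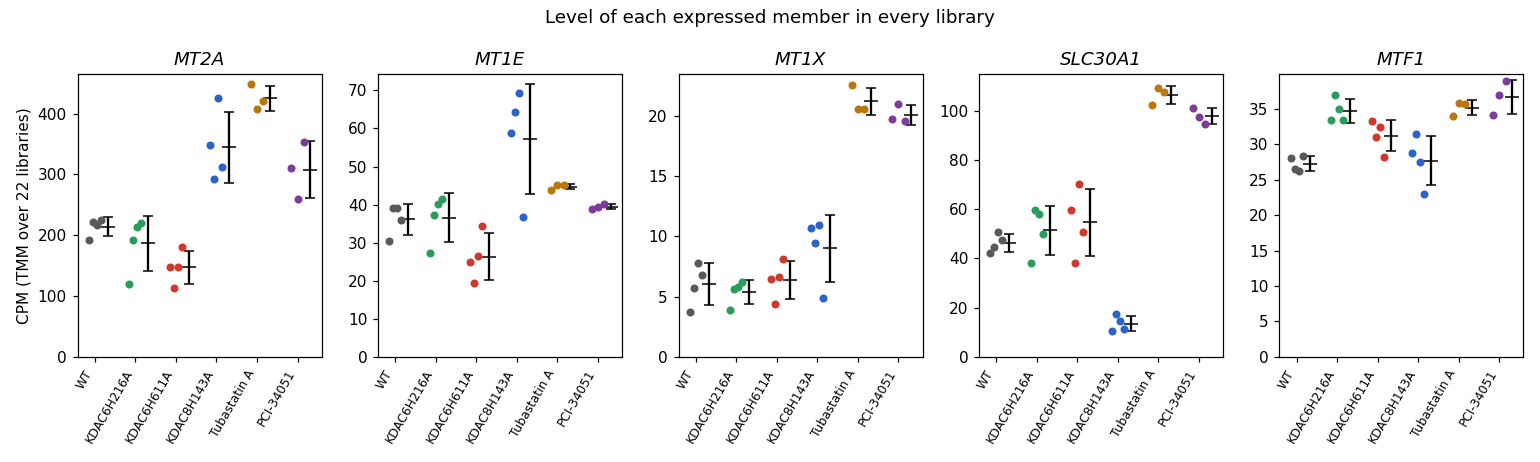
CPM (TMM over 22 libraries, axes from 0) of the 5 expressed members in every library, by group; points are libraries, and bars are the mean ± SD (n = 4, or 3 with inhibitor). SLC30A1 and MT1X with either inhibitor lie above every WT library, and SLC30A1 in KDAC8H143A lies below.

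Fold changes came from a separate fit of each pair of groups with its own scaling (edgeR's quasi-likelihood test, Benjamini-Hochberg adjustment over all genes tested), with an adjusted p below 0.01 called a change. Errors of log2 fold changes are SE. The 5 comparisons with WT cells share the same 4 WT libraries. In these cultures, fewer cells expressing a gene and less of its RNA per cell cannot be told apart. Whether groups overlap is given for each member as a description. The share of all genes whose groups do not overlap was not counted.

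With Tubastatin A, the exporter and 2 metallothioneins were higher than in WT cells. Of the 5 members tested, 4 rose (SLC30A1, MT1X, MT2A and MTF1) and none fell, where 57.9% of the 15247 genes tested were called, 29.3% of all as higher and 28.6% as lower. The median log2 fold change of the 5 was 0.87, against -0.0030 over all genes tested. SLC30A1 was at 102, 109 and 108 CPM, every library above the highest WT library, and the log2 fold change was 1.08 ± 0.05 (adjusted p = 8.96e-13, edgeR), or 2.11-fold. MT1X was at 22.5, 20.5 and 20.6 CPM, again with no overlap, and the log2 fold change was 1.66 ± 0.13 (adjusted p = 9.04e-10, edgeR), or 3.16-fold. MT2A was at 448, 407 and 420 CPM against 192 to 226 in WT cells, with a log2 fold change of 0.87 ± 0.05 (adjusted p = 1.80e-11, edgeR). These 3 genes differ in level, and for each no treated library lay within the WT range. How many of all genes separated in this way was not counted. MT1E was at 43.9, 45.0 and 45.2 CPM. Its groups did not overlap either, but the log2 fold change of 0.18 ± 0.06 did not pass the threshold (adjusted p = 0.0146, edgeR; 95% interval 0.05 to 0.31). MTF1 was at 33.9, 35.8 and 35.8 CPM, also without overlap, with a log2 fold change of 0.26 ± 0.07 (adjusted p = 0.00182, edgeR). With all libraries thinned to the smallest total count, that of MTF1 was 0.12 ± 0.09 and no longer passed (adjusted p = 0.271), while SLC30A1 was at 1.04 and MT2A at 0.87. After a correction for GC content and length, MT2A was at 1.46 ± 0.05 and MT1E at 0.68 ± 0.06 (adjusted p = 1.38e-08, edgeR), so the call for MT1E turned on this choice.

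PCI-34051 moved the same 4 members past the threshold, with smaller values for MT2A. Of the 5 tested, 4 rose and none fell, where 51.1% of 15347 genes were called, 25.5% of all as higher and 25.6% as lower. The median log2 fold change of the 5 was 0.43, against -0.0071 over all genes. SLC30A1 was at 101, 97.6 and 94.6 CPM, with a log2 fold change of 0.97 ± 0.06 (adjusted p = 1.87e-10, edgeR), or 1.96-fold. MT1X was at 19.7, 21.0 and 19.5 CPM, with a log2 fold change of 1.60 ± 0.13 (adjusted p = 1.62e-08, edgeR), or 3.03-fold. Neither gene's treated libraries overlapped those of WT cells. MT2A was at 311, 260 and 353 CPM, above WT cells in all 3 libraries and more spread among them than with Tubastatin A, with a log2 fold change of 0.43 ± 0.08 (adjusted p = 0.000311, edgeR). MT1E was at 38.8, 39.4 and 40.1 CPM, overlapping WT cells, with a log2 fold change of 0.013 ± 0.067 (adjusted p = 0.877, edgeR; 95% interval -0.13 to 0.15). MTF1 was at 34.2, 37.0 and 39.0 CPM, all above WT cells, with a log2 fold change of 0.34 ± 0.07 (adjusted p = 0.000748, edgeR). After the correction for GC content and length, MT2A was at 0.93 ± 0.08 and MT1E at 0.44 ± 0.07 (adjusted p = 2.71e-05, edgeR), and in a fit of all 6 groups MT2A was at 0.52 ± 0.18 and did not pass (adjusted p = 0.0228).

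Depth and the mitochondrial rRNA share separated both sets of treated libraries from WT cells and cannot be told apart from treatment in this design. Without mitochondrial and short noncoding RNA, the log2 fold changes of SLC30A1 were 1.09 and 0.98 with Tubastatin A and PCI-34051, and those of MT1X were 1.66 and 1.60. Scaled by the total count alone, all genes shifted by a median of 0.35 and 0.38 and the same 2 genes were at 1.43 and 1.36 (SLC30A1) and at 2.01 and 1.98 (MT1X).

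The balance among metallothioneins, a ratio within a library that no scaling of libraries can change, also differed. MT1X supplied 1.65% to 2.97% of the metallothionein counts in WT cells, 4.23% to 4.37% with Tubastatin A and 4.73% to 6.55% with PCI-34051. The ratio of MT1E to MT1X (CPM over CPM) was 5 to 8.17 in WT cells, 1.95 to 2.199 with Tubastatin A and 1.88 to 2.05 with PCI-34051. Treated and WT libraries did not overlap in either measure. The metallothioneins of the cluster were thus not raised in proportion.

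When Tubastatin A and PCI-34051 were set directly against each other, MT2A alone among the members passed the threshold. The doses differ (1 and 5 µM), so the difference is between these treatments and not between the compounds at a matched dose. Of the 5 tested, 1 was called, where 5.65% of 18410 genes were called, 3.45% of all as higher with Tubastatin A and 2.19% as lower. At an adjusted p below 0.05, 2 of the 5 and 13.4% of all genes were called. MT2A was higher with Tubastatin A by a log2 value of 0.45 ± 0.08 (adjusted p = 0.0021, edgeR), and every Tubastatin A library lay above every PCI-34051 library. The call was lost with DESeq2 (0.45, adjusted p = 0.0135), in a fit of all 6 groups (0.47, adjusted p = 0.675), and without Tubastatin A replicate 1 (0.41, adjusted p = 0.0195) or replicate 3 (0.46, adjusted p = 0.0133). For the others the 95% interval of the difference was 0.07 to 0.27 for MT1E (adjusted p = 0.0261), 0.01 to 0.20 for SLC30A1 (adjusted p = 0.132), -0.08 to 0.21 for MT1X (adjusted p = 0.603) and -0.20 to 0.04 for MTF1 (adjusted p = 0.405, edgeR). For MT1E and SLC30A1, too, every Tubastatin A library lay above every PCI-34051 library. MT1E passed after the GC content and length correction (0.28, adjusted p = 0.0012, edgeR).

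**Figure D3:**
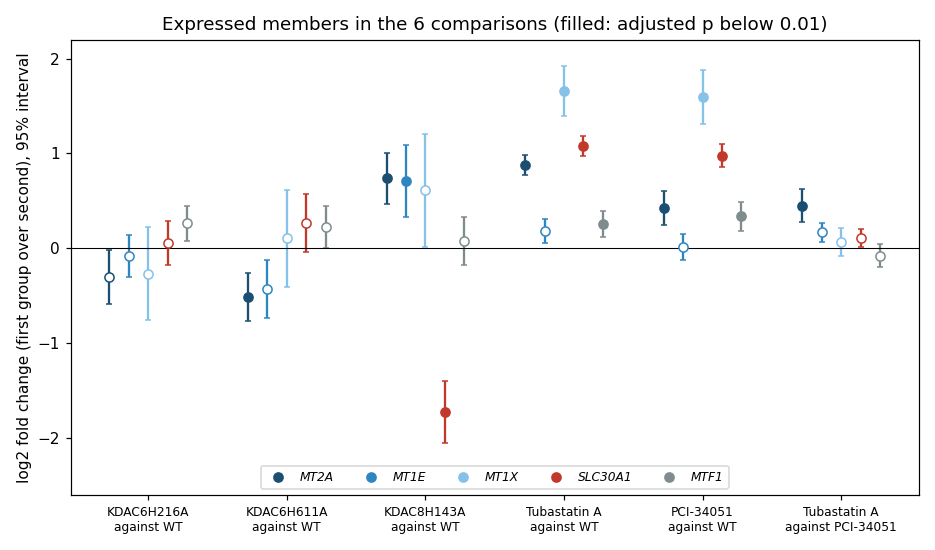
Log2 fold changes (first group over second, edgeR) with 95% intervals of the 5 expressed members in the 6 comparisons; filled points have an adjusted p below 0.01. MT1X and SLC30A1 lie far above 0 with both inhibitors, and SLC30A1 lies at -1.73 in KDAC8H143A.

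Before any correction for GC content, KDAC8H143A parted the exporter from the metallothioneins. SLC30A1 fell while MT2A and MT1E rose, so that 3 of the 5 members tested changed, 2 higher and 1 lower, where 58.5% of 16101 genes were called, 31.6% of all as higher and 26.9% as lower. The median log2 fold change of the 5 was 0.61, against 0.076 over all genes. SLC30A1 was at 10.5, 17.3, 14.5 and 11.5 CPM, all below the lowest WT library, with a log2 fold change of -1.73 ± 0.15 (adjusted p = 2.78e-06, edgeR), or 3.31-fold lower. MT2A was at 348, 293, 426 and 312 CPM, all above WT cells, with a log2 fold change of 0.74 ± 0.12 (adjusted p = 0.000228, edgeR). MT1E was at 58.7, 64.2, 69.4 and 36.7 CPM, and replicate 4 lay within the WT range. Its log2 fold change was 0.71 ± 0.17 (adjusted p = 0.00304, edgeR). Without WT replicate 1, WT replicate 4 or KDAC8H143A replicate 3 the call for MT1E was lost. MT1X was at 10.7, 9.47, 10.9 and 4.89 CPM, with a log2 fold change of 0.61 ± 0.27 (adjusted p = 0.063, edgeR; 95% interval 0.02 to 1.21), and passed without KDAC8H143A replicate 4 (0.76, adjusted p = 0.00479). MTF1 was at 28.8, 31.4, 27.6 and 23.1 CPM, overlapping WT cells, with a log2 fold change of 0.075 ± 0.115 (adjusted p = 0.576, edgeR; 95% interval -0.18 to 0.33). The number of MT2A counts per SLC30A1 count, also not corrected for GC content, was 16.9 to 33.2 in KDAC8H143A and 4.25 to 4.97 in WT cells.

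Base composition moved with the KDAC8H143A result. Across the 15897 genes with a GC value, Spearman's rho between log2 fold change and GC content was 0.60 in this comparison, against -0.14 with Tubastatin A and -0.09 with PCI-34051; the exons of MT2A, MT1X and MT1E are 53.9%, 53.7% and 53.2% GC, those of MTF1 46.6% and those of SLC30A1 40.7%. After a smooth correction for GC content and length, the log2 fold change was 0.0025 ± 0.11 for MT2A (adjusted p = 0.986) and 0.12 ± 0.17 for MT1E (adjusted p = 0.586), and neither was called. SLC30A1 fell under the correction as well, at -1.05 ± 0.12 (adjusted p = 9.87e-06, edgeR). The exporter's fall was thus called in every alternative run, and the rise of the metallothioneins was not.

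**Figure D4:**
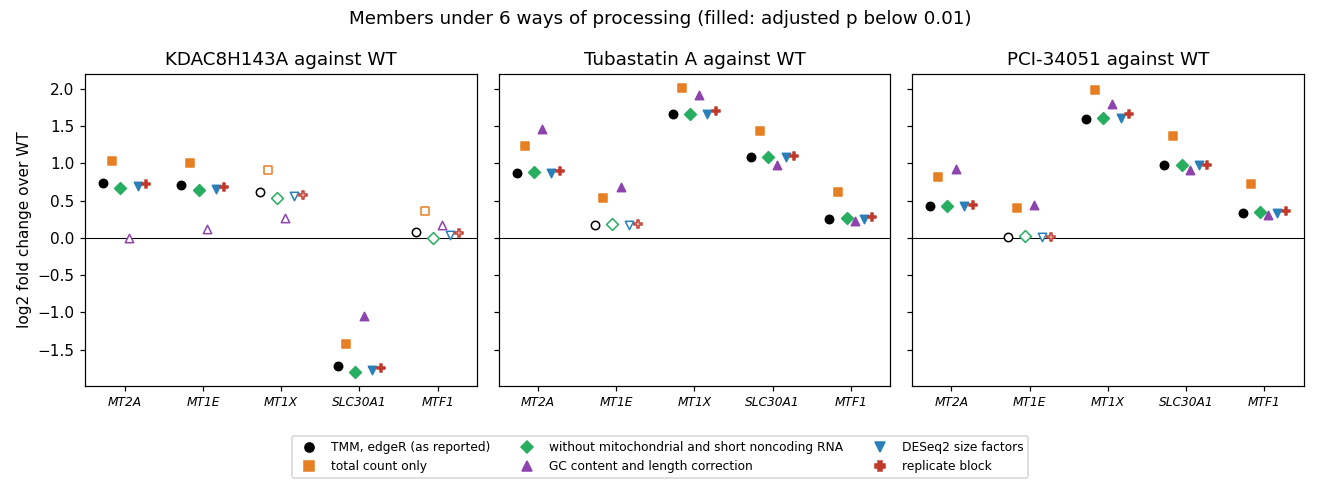
Log2 fold changes over WT cells of the 5 expressed members in 3 comparisons under 6 ways of processing, by symbol; filled symbols have an adjusted p below 0.01. In KDAC8H143A, MT2A and MT1E fall to near 0 with the GC content and length correction while SLC30A1 stays below -1; with the inhibitors MT1X and SLC30A1 are filled throughout.

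KDAC6H611A had a lower MT2A level. Of the 5 members tested 1 fell and none rose, where 12.3% of 14726 genes were called, 6.24% of all as lower and 6.08% as higher, and the median of the 5 was 0.10 against 0.028 over all genes. MT2A was at 147, 114, 148 and 180 CPM, all below the lowest WT library, with a log2 fold change of -0.52 ± 0.12 (adjusted p = 0.00763, edgeR). That value lies close to the threshold. It did not pass with the total count only (-0.46, adjusted p = 0.26), in a fit of all 6 groups (-0.54, adjusted p = 0.0238), with the replicate number as a block (-0.53, adjusted p = 0.0103), or without any 1 of the WT libraries or of replicates 1 and 3 of the line (adjusted p between 0.0142 and 0.0324). MT1E was at 25.0, 19.4, 26.5 and 34.4 CPM and did not pass, with a log2 fold change of -0.43 ± 0.14 (adjusted p = 0.0422, edgeR; 95% interval -0.73 to -0.13). Without replicate 4, the line's library lowest in mitochondrial rRNA, MT2A was at -0.62 (adjusted p = 0.00211) and MT1E at -0.58 (adjusted p = 0.00606, edgeR), and both were called. Replicate 2, the highest in mitochondrial rRNA, had the line's lowest MT2A, MT1E, MT1X and SLC30A1 values. Without it MT2A was called and MT1E was not, and 2908 genes were called over the whole table in place of 1814. At an adjusted p below 0.05, 2 of the 5 and 23% of all genes were called with all libraries. MT1X was at 6.45, 4.36, 6.61 and 8.14 CPM (log2 fold change 0.10 ± 0.23, adjusted p = 0.802, 95% interval -0.41 to 0.61), SLC30A1 at 59.8, 38.1, 70.2 and 50.7 CPM (0.27 ± 0.14, adjusted p = 0.205, -0.04 to 0.58) and MTF1 at 33.3, 31.0, 32.4 and 28.2 CPM (0.22 ± 0.10, adjusted p = 0.138, 0.0046 to 0.44). All 3 overlapped WT cells. MT1X made up 3.17% to 3.66% of the metallothionein counts, above the 1.65% to 2.97% of WT cells, and the counts of MT2A per count of SLC30A1 were 2.11 to 3.55, below the 4.25 to 4.97 of WT cells.

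KDAC6H216A showed no called member. Of the 5 tested, 0 passed with edgeR and 0 with DESeq2, where 0.834% of 14501 genes were called with edgeR. An unadjusted p below 0.05 (edgeR) was reached by 2 of the 5 and by 1947 of the 14501 genes. The median of the 5 was -0.08 against 0.0035 over all genes. MTF1 was at 33.5, 37.0, 35.0 and 33.4 CPM, every library above WT cells, with a log2 fold change of 0.26 ± 0.08 (adjusted p = 0.178, edgeR; 95% interval 0.08 to 0.45). MT2A was at 121, 192, 213 and 220 CPM, with a log2 fold change of -0.30 ± 0.13 (adjusted p = 0.344, edgeR; 95% interval -0.59 to -0.01). The lowest MT2A value was that of replicate 1, which stood apart in mitochondrial rRNA. Without it the value was -0.18 (adjusted p = 0.0191), that of MTF1 was 0.23 (adjusted p = 0.0247), and the number of genes called over the whole table went from 121 to 3814. MT1E was at 27.4, 37.4, 40.0 and 41.5 CPM (-0.08 ± 0.10, 95% interval -0.30 to 0.14), MT1X at 3.87, 5.65, 5.79 and 6.19 CPM (-0.27 ± 0.22, -0.75 to 0.22) and SLC30A1 at 38.0, 59.5, 58.2 and 49.9 CPM (0.05 ± 0.10, -0.17 to 0.28). These 3 overlapped WT cells.

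Over the 6 groups, the order of mean MT2A levels was Tubastatin A (425 ± 20.8 CPM), KDAC8H143A (345 ± 58.6), PCI-34051 (308 ± 46.4), WT (214 ± 15.4), KDAC6H216A (186 ± 45.5) and KDAC6H611A (147 ± 27.2). Neighbouring groups overlapped except PCI-34051 and WT. For SLC30A1 it was Tubastatin A (106 ± 3.48), PCI-34051 (97.7 ± 3.21), KDAC6H611A (54.7 ± 13.7), KDAC6H216A (51.4 ± 9.88), WT (46.3 ± 3.72) and KDAC8H143A (13.4 ± 3.08), and the 3 middle groups overlapped one another. For MT1X, Tubastatin A (21.2 ± 1.13) and PCI-34051 (20.1 ± 0.81) overlapped and stood above KDAC8H143A (8.99 ± 2.81), KDAC6H611A (6.39 ± 1.55), WT (6.02 ± 1.75) and KDAC6H216A (5.38 ± 1.03), all of which overlapped. For MT1E, KDAC8H143A (57.2 ± 14.4) was followed by Tubastatin A (44.7 ± 0.70), PCI-34051 (39.4 ± 0.67), KDAC6H216A (36.6 ± 6.37), WT (36.1 ± 4.13) and KDAC6H611A (26.3 ± 6.17), and only Tubastatin A and PCI-34051 did not overlap among these neighbours. MTF1 ran from PCI-34051 (36.7 ± 2.42) through Tubastatin A (35.2 ± 1.05), KDAC6H216A (34.7 ± 1.68), KDAC6H611A (31.2 ± 2.21) and KDAC8H143A (27.7 ± 3.49) to WT (27.3 ± 1.07), and only the KDAC6 lines did not overlap among these neighbours.

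Across the 22 libraries, Pearson's r of log2(CPM + 1) was 0.82 between MT2A and MT1E, 0.77 between MT2A and MT1X, and 0.01 between MT2A and SLC30A1. After the group means were removed, these were 0.72, 0.63 and 0.44. The libraries share groups, depth and base composition, so these are descriptions. The genes most like the mean metallothionein pattern, among 15582 with at least 1 CPM on average, were SEC14L1 (r = 0.93), SEPHS2 (0.93), ZNF703 (0.92), ATP6V0C (0.92) and PCDHGA4 (0.92). SLC30A1 ranked 7642 (r = 0.07) and MTF1 5817 (r = 0.19). Over the 16 libraries without inhibitor, 0 of the 5 genes named as most like were still among the 5 most like. There SLC30A1 ranked 14522 (r = -0.63) and MTF1 10261 (r = -0.30).

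The other zinc transporters gave a background for SLC30A1. Of the 10 other exporters (SLC30A2 to SLC30A10 and TMEM163), 7 were tested in each comparison. With Tubastatin A 5 rose and 1 fell, with PCI-34051 also 5 and 1, and the median log2 fold changes were 0.26 and 0.29. Over all genes tested, 29.3% were called higher and 28.6% lower with Tubastatin A, and 25.5% and 25.6% with PCI-34051. SLC30A4, which loads zinc into vesicles, rose by 0.88 ± 0.14 and 0.69 ± 0.14, SLC30A9 by 0.62 ± 0.06 and 0.47 ± 0.07, and SLC30A3, a vesicular transporter best known from neurons, differed by -1.21 ± 0.23 and -1.48 ± 0.25 (adjusted p between 4.69e-08 and 0.000481, edgeR). In KDAC8H143A 1 exporter rose and 6 fell, with a median of -1.39; SLC30A7 and SLC30A6, transporters of the secretory pathway, fell by 1.63 ± 0.26 and 1.62 ± 0.32 on the log2 scale, and SLC30A3 rose by 2.06 ± 0.19 (adjusted p between 3.87e-06 and 0.000739, edgeR). Over all genes, 31.6% were called higher and 26.9% lower in that line. The KDAC8H143A values of this and the following lists were not corrected for GC content. In KDAC6H216A, in KDAC6H611A and between the inhibitors 0 of 7 exporters passed, where 0.834%, 12.3% and 5.65% of all genes were called.

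Of 14 importers of the SLC39 family, 11 were tested against WT cells. With Tubastatin A 6 rose and 2 fell, with PCI-34051 4 and 2, and in KDAC8H143A 3 rose and 5 fell. The shares of all genes called in either direction were 57.9%, 51.1% and 58.5% in that order. They were 12.3% in KDAC6H611A, 0.834% in KDAC6H216A and 5.65% between the inhibitors. SLC39A10, a plasma membrane importer, was at 96.1 ± 1.27 CPM with Tubastatin A, 80.1 ± 4.16 with PCI-34051 and 45.4 ± 2.85 in WT cells (log2 fold changes 0.96 ± 0.05 and 0.72 ± 0.06). SLC39A4, the intestinal zinc importer, was at 4.11 ± 0.75, 4.51 ± 0.85 and 1.95 ± 0.64 CPM in the same order (1.01 ± 0.26 and 1.15 ± 0.26), and SLC39A9 had log2 fold changes of 0.40 ± 0.05 and 0.47 ± 0.05. All 6 differences passed (adjusted p between 9.88e-13 and 0.00188, edgeR). In KDAC8H143A SLC39A4 rose by 2.02 ± 0.24 while SLC39A10 and SLC39A6 fell, with log2 fold changes of -1.38 ± 0.24 and -1.33 ± 0.15 (adjusted p between 1.25e-05 and 0.000309, edgeR). In KDAC6H611A only SLC39A6 passed, at -1.15 ± 0.13 (adjusted p = 6.47e-05, edgeR), and in KDAC6H216A 0 of 11. Between the inhibitors 2 of 12 were higher with Tubastatin A, SLC39A8 by 0.43 ± 0.06 and SLC39A10 by 0.25 ± 0.04 (adjusted p = 0.000316 and 0.0019, edgeR).

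Genes of copper and iron handling moved in both directions. Of 10 copper genes, 2 rose and 4 fell with Tubastatin A, 1 and 3 with PCI-34051, and 1 and 4 in KDAC8H143A. For this list and the iron genes, the shares of all genes called in either direction were 57.9%, 51.1% and 58.5% in that order. They were 12.3% in KDAC6H611A, 0.834% in KDAC6H216A and 5.65% between the inhibitors. The copper pump ATP7A was at 15.9 ± 0.24 CPM with Tubastatin A and 16.7 ± 0.90 with PCI-34051, against 7.26 ± 1.10 in WT cells and 2.24 ± 1.29 in KDAC8H143A. In KDAC8H143A the copper importer SLC31A1 fell by 1.52 ± 0.21 and SLC31A2 by 1.74 ± 0.38 on the log2 scale, and with the inhibitors COX17 and SCO2, which supply copper to cytochrome oxidase, had log2 fold changes of -0.52 to -0.94. Of 10 iron genes, 3 rose and 3 fell with Tubastatin A, 2 rose and 1 fell with PCI-34051, and 0 rose and 5 of 9 fell in KDAC8H143A. The transferrin receptor TFRC was at 352 ± 15.7 and 400 ± 37.3 CPM with the inhibitors and 245 ± 66.5 in KDAC8H143A, against 781 ± 51.2 in WT cells. The ferritin chains FTL and FTH1 rose by 0.78 ± 0.06 and 0.52 ± 0.05 with Tubastatin A and by 0.95 ± 0.07 and 0.93 ± 0.06 with PCI-34051, and FTH1 fell by 1.19 ± 0.14 on the log2 scale in KDAC8H143A, as did NCOA4, the receptor for ferritin breakdown, by 1.14 ± 0.14. Each of these passed (adjusted p at most 0.00159, edgeR). In KDAC6H611A 0 of 10 copper genes passed and 1 of 9 iron genes fell, STEAP3 at -0.57 ± 0.13 (adjusted p = 0.00741, edgeR), and in KDAC6H216A 0 of either. Between the inhibitors SLC31A2 was higher with Tubastatin A and FTH1 and FTL were lower, by -0.41 ± 0.05 and -0.17 ± 0.04.

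Genes that cadmium induces beside the metallothioneins were listed beside them. Of 8 tested, 6 rose and 0 fell with Tubastatin A and 7 rose and 0 fell with PCI-34051, where 57.9% and 51.1% of all genes were called in either direction. In KDAC8H143A 2 rose and 3 fell, a share near the 58.5% of all genes called. SLC7A11, the cystine importer, was at 334 ± 10.5 and 379 ± 7.23 CPM with the inhibitors against 106 ± 5.08 in WT cells (log2 fold changes 1.55 ± 0.05 and 1.74 ± 0.06). GCLM, of glutathione synthesis, rose by 0.97 ± 0.06 and 1.07 ± 0.06, and SRXN1, sulfiredoxin, by 0.85 ± 0.05 and 0.97 ± 0.07 (adjusted p at most 1.31e-09, edgeR). In KDAC8H143A GCLM and SLC7A11 fell by 1.34 ± 0.13 and 0.82 ± 0.20 on the log2 scale while the heat shock gene HSPA1B rose by 1.02 ± 0.24 (adjusted p at most 0.00309, edgeR). HSPA1B was the 1 gene that rose in KDAC6H611A, by 0.85 ± 0.18 (adjusted p = 0.00461, edgeR), though its near-identical copy HSPA1A makes its counts uncertain, and 0 of 8 passed in KDAC6H216A. Between the inhibitors HMOX1 and SLC7A11 were lower with Tubastatin A, by -0.37 ± 0.08 and -0.20 ± 0.04. Of all genes, 12.3% were called in KDAC6H611A, 0.834% in KDAC6H216A and 5.65% between the inhibitors.

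Glucocorticoid-response genes were followed because MT2A is also known to respond to these hormones. Of 7 tested, 6 rose and 1 fell with Tubastatin A, where 29.3% and 28.6% of all genes did, and 5 rose and 1 fell with PCI-34051, where 25.5% and 25.6% did. KLF9 was at 118 ± 3.15 and 128 ± 0.85 CPM against 19.8 ± 1.02 in WT cells (log2 fold changes 2.46 ± 0.05 and 2.59 ± 0.06). DUSP1, a phosphatase of MAP kinases, rose by 1.67 ± 0.08 and 1.59 ± 0.08, and the clock gene PER1 by 1.02 ± 0.12 and 1.21 ± 0.12 (adjusted p at most 7.35e-07, edgeR). In KDAC8H143A 2 rose and 2 fell, with SGK1, a kinase, at -1.81 ± 0.13, PER1 at 1.10 ± 0.15 and DUSP1 at 0.72 ± 0.13. The share of all genes called in either direction was 58.5% there and 12.3% in KDAC6H611A. In KDAC6H611A KLF9 and TSC22D3 rose by 0.78 ± 0.12 and 0.70 ± 0.16 and SGK1 fell by 0.68 ± 0.10 on the log2 scale (adjusted p at most 0.0093, edgeR), while MT2A was lower. In KDAC6H216A and between the inhibitors 0 of 7 passed, where 0.834% and 5.65% of all genes were called. Their part in the MT2A values was not tested.

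The neighbours of the cluster on chromosome 16 gave mixed values. Of 6 flanking genes tested, 3 rose and 2 fell with each inhibitor, 0 rose and 3 fell in KDAC8H143A, and 0 passed in either KDAC6 line. Over all genes, 57.9% and 51.1% were called with Tubastatin A and PCI-34051, 58.5% in KDAC8H143A, 0.834% in KDAC6H216A and 12.3% in KDAC6H611A. BBS2, the nearest tested gene before MT2A, rose by 0.68 ± 0.07 and 0.65 ± 0.07 with the inhibitors, and NUP93, the nearest after MT1X, was lower, at -0.46 ± 0.05 and -0.61 ± 0.06 (adjusted p at most 5.6e-07, edgeR). HERPUD1 rose by 0.43 ± 0.07 with PCI-34051 (adjusted p = 5.24e-05, edgeR). In KDAC8H143A, where MT2A was higher before correction for GC content, NUDT21, OGFOD1 and NUP93 fell by 1.27 ± 0.15, 0.66 ± 0.10 and 0.54 ± 0.10 on the log2 scale (adjusted p at most 0.000507, edgeR). Between the inhibitors 0 of 7 passed, where 5.65% of all genes were called.

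Mesenchymal markers of the cell line moved as well. In each KDAC6 line 1 of 5 tested fell and 0 rose, where 0.834% (KDAC6H216A) and 12.3% (KDAC6H611A) of all genes were called. With Tubastatin A 2 of 5 tested rose and 1 fell, with PCI-34051 2 rose and 2 fell, and in KDAC8H143A 0 rose and 4 fell. The shares of all genes called in either direction were 57.9%, 51.1% and 58.5% in that order. FN1, fibronectin, was at log2 fold changes of 1.62 ± 0.05, 2.02 ± 0.06 and -1.41 ± 0.22 in those comparisons, whereas COL4A1 fell in KDAC6H216A by 0.66 ± 0.08 and in KDAC6H611A by 1.04 ± 0.13 on the log2 scale (adjusted p at most 0.00197, edgeR).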

How the data were processed

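RNA was sequenced from 22 HT1080 libraries after rRNA depletion. Per the study's methods and processing notes, the authors trimmed paired reads with Trimmomatic 0.39, aligned them to GRCh38 with Bowtie2 2.4.5 and counted them with RSEM 1.3.3; the annotation release and strand setting are not given in the sources used here. The authors deposited RSEM's expected counts, unscaled, and 0 value columns were left unused. Groups and replicate numbers were read from sample titles and column names. Expected counts were rounded and fitted with edgeR 4.0.16 (TMM, filterByExpr, glmQLFit and glmQLFTest, in R 4.3.3) on the 2 groups of each comparison, with Benjamini-Hochberg adjustment over all genes tested and a threshold of 0.01, the level in the study's methods. The SE was the size of the log2 fold change over the square root of F, and 95% intervals used the t distribution. Lengths and GC content came from GENCODE 44, matched by identifier for 56558 of 60675 genes. MT1X shares 75 of its 1578 windows of 150 bases (4.75%) with ENSG00000259827. Without a stated strand setting, reads from that shared stretch cannot be told apart. Promoters came from RefSeq. 

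Of the lists, all 8 members were named throughout, and of each other list at most 3 genes per comparison with the largest change past the threshold and at least 1 CPM in the higher group. HDAC6 and HDAC8 were given once, with the 5 genes most like the metallothionein pattern. The members and lists were chosen with earlier results of these data known. The alternatives tried were scaling by upper quartile or by total count, DESeq2 1.42.0, a threshold of 0.05, a minimum of 10 counts per library or none, a joint fit of the 6 groups, a fit without mitochondrial and short noncoding RNA, a smooth GC content and length correction (mgcv 1.9.3), the replicate number as a block with and without that correction, thinning to the smallest total, the metallothioneins summed into 1 row, and leaving out each library. On simulated data with 200 changed genes, the edgeR fit recovered 99% for KDAC6H216A against WT, 98% for Tubastatin A against WT and 94.5% for Tubastatin A against PCI-34051. The changed genes were well above the floor, all genes had the same relative spread, and no simulated library stood apart. Their changes were larger than most of those of the members. These shares therefore do not give the chance of finding smaller changes in the real libraries. No 2 libraries held identical values. No interval for counting error is given beyond the floor of 3 counts. A marker gene of the fixed lists is not reported here.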

Additional observations from a re-analysis of the deposited data

Results flagged for a closer look

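The log2 difference in MT2A between Tubastatin A and PCI-34051 (0.45, with 425 ± 20.8 CPM against 308 ± 46.4, SD, n = 3 each) stood out because the direct test of the difference passed the threshold (adjusted p = 0.0021, edgeR, Benjamini-Hochberg adjusted over all genes). MT2A was higher in 3 of 3 Tubastatin A libraries than in any PCI-34051 library. MT1E and SLC30A1, which did not pass, separated in the same way. The doses were 1 and 5 µM, and the call for MT2A was lost in several alternatives, as given with the comparison. In 20 combinations of gene and group of 4 libraries, 0 had a library outlying by Dixon's test, where chance gives about 1 in 20.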

How the results depend on the processing

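Of the members, 0 were called in KDAC6H216A under every alternative run, and 3 to 5 with either inhibitor against WT cells in place of 4. With Tubastatin A, MTF1 was lost after thinning to the smallest total and with the correction and block, and MT1E was gained with a minimum of 10 counts per library, without a filter, with scaling to the total count, with the GC content and length correction (with or without the block), without WT replicate 3 and at an adjusted p of 0.05. With PCI-34051, MT2A was lost with all 6 groups in one fit, and MT1E was gained with the total count only and with the correction, with or without the block; with the metallothioneins summed 3 features were called with each inhibitor. In KDAC6H611A, 1 member was called, but 0 with the total count only, with all 6 groups in one fit, with the replicate block and with the metallothioneins summed (log2 fold change of the sum -0.48, adjusted p = 0.0136, edgeR), and 2 at an adjusted p of 0.05; leaving out libraries gave 0 to 2. In KDAC8H143A, 3 were called, but 1 with the GC content and length correction, with or without the block, and 2 to 4 when libraries were left out. Between the inhibitors, 1 was called, but 0 with DESeq2 and with all 6 groups in one fit, 2 with the GC content and length correction, with or without the block, and 2 at an adjusted p of 0.05; leaving out libraries gave 0 to 1. Summed metallothionein levels in WT cells and with Tubastatin A went from 256 and 491 to 231 and 522 CPM with the total count only. For calls lost or gained here the cause was not tested.

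Values that changed sign were, with 1 exception, not called. In KDAC6H216A, MT1E turned to 0.081 with the total count only, 0.014 with all 6 groups, 0.088 with the GC content and length correction and 0.083 with the block added, and SLC30A1 ran from -0.015 (without replicate 2) to 0.13 when libraries were left out. In KDAC6H611A, MT1X ran from -0.040 (without WT replicate 1; negative also without replicate 4 of the line) to 0.24. In KDAC8H143A, MTF1 ran from -0.052 (without replicate 2) to 0.11, and MT2A, the exception, turned to -0.0030 with the correction and the block. With PCI-34051, MT1E ran from -0.035 (without WT replicate 1; negative also without PCI-34051 replicate 3) to 0.048.

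The correlation over genes between deviations of same-numbered replicates ran from -0.22 to 0.38 over the comparisons. In KDAC6H216A against WT it was 0.38, 0.11, 0.31 and 0.0084 for replicates 1, 2, 3 and 4. In no comparison did every pair exceed 0.1. Whether the numbers pair the cultures is not given in the sources used here, and these values cannot settle it. With the replicate block, MT2A in KDAC6H611A had an adjusted p of 0.0103 (-0.53, edgeR), and no other member's call changed. Over all genes, the number called in KDAC6H216A was 121, against 66 with the block, 58 with the block and correction, 367 with DESeq2, 443 with the total count only, 182 with no filter, 215 with all 6 groups and 28 to 3814 without 1 library. It was 1814 in KDAC6H611A, against 913 with the total count only and 1122 to 2908 without 1 library. With all 6 groups it was 4607 in place of 8821 with Tubastatin A, 4346 in place of 7836 with PCI-34051, and 7 in place of 1040 between the inhibitors, where no filter gave 1890 and leaving out a library 407 at the least. Total count scaling moved the higher and lower calls from 5093 and 4328 to 6480 and 2496 in KDAC8H143A, from 4461 and 4360 to 7909 and 1846 with Tubastatin A, and from 3914 and 3922 to 7893 and 1477 with PCI-34051.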
